A study of Rattus norvegicus with 12 samples.

Results

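The mesenteric lymph nodes of rat pups that had conjugated linoleic acid (CLA) by gavage in suckling only (group C) were compared with those of pups that had none (group D), on 6 of the 12 arrays of the study, 3 in each group. Each array held RNA from the nodes of 1 Wistar pup at day 21, the end of suckling. Dams of both groups ate the standard diet, and group C pups were gavaged each day for the 3 weeks of suckling with CLA made of 80% c9,t11 and 20% t10,c12 isomer, whereas group D pups had 0 weeks of CLA. Groups A and B, set beside group C at the end, both had 5 weeks of CLA, the first 2 through a dam's diet with 1% CLA in gestation and the last 3 through her milk in group A or by gavage in group B. Members were all probe sets of the array other than controls, 31042 of 31099, and 20826 of them carried 1 gene symbol, 436 several and 9780 none. For counts over genes, the brightest probe set stood for each of 14217 genes. Which litter a pup came from, and whether group D was gavaged with a vehicle, are unknown here, so CLA, the gavage and the parting of a litter from its dam before gavage cannot be told apart.

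Mesenteric lymph nodes drain the intestine through its lymph, and hold the T and B cells that meet antigen carried in from the gut. They lie in the mesentery, a sheet of fat, vessels, nerves and connective tissue covered by mesothelium. CLA is a family of isomers of linoleic acid found in milk and ruminant fat. Its t10,c12 isomer is known for lowering the expression of lipid synthesis genes in fat and mammary tissue, and both isomers are ligands of the PPAR nuclear receptors, which switch on genes of fatty acid storage and oxidation.

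Values are log2 of the deposited array intensity after quantile normalization over all 12 arrays, with values under 1 raised to 1, so that 0 is the floor. The background of an array, taken from probe sets for spike RNA that was not added, ran from 2.54 to 2.88 over the group C arrays and from 2.38 to 3.04 over those of group D. Lymph node markers were far above it on all 6 arrays: Ms4a1, the B cell antigen CD20, lay between 9.69 and 10.4, and Cxcl13, the chemokine of B cell follicles, between 10.4 and 10.9. Before normalization the group C arrays had median intensities of 20.2 to 27 and the group D arrays of 34.3 to 38.5, and the normalization removed that gap. The median gene then differed by −0.12 between groups C and D, against −0.80 with the values as deposited, so a difference is read here relative to the rest of the genes. Group D replicate 3 stood apart: its mean correlation over probe sets was 0.93 with the group C arrays and 0.896 with the other 2 group D arrays, and limma gave it an array weight of 0.218 against 0.777 to 1.68 for the others. Its mean correlation with the group B arrays was 0.931, so its likeness was not to group C alone. It was nearer to the group C mean than to the mean of its own 2 fellows in 9853 of 14217 genes, 69.3%. The main results are therefore given with and without it. Because it was set apart for its likeness to group C, leaving it out tends to widen the difference and narrow the spread of group D. Results without it rest on 3 pups against 2, and their adjusted p values depend on that choice. These arrays cannot show which group D pups are typical. In a bulk sample, fewer cells of a type and less RNA per cell cannot be told apart.

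A few named genes differed with all arrays in the fit, and most of them were lower after CLA gavage. A call needed a Benjamini-Hochberg adjusted p under 0.05 in limma and at least a 2-fold difference. By that rule 9 probe sets were lower in group C, 0.029% of those tested, and 7 were higher, 0.0226%, which were also all 16 past the adjusted p alone (0.0515%). At an unadjusted p under 0.05, 925 were at least 2-fold lower (2.98%) and 1357 higher (4.37%). Counted over genes, 5 were lower (0.0352%) and 1 higher (0.00703%) at an adjusted p under 0.05. The lower ones were probe sets for Krt8, a further epithelial gene, Tmprss2, the lipid genes Gpd1 and Dgat2, the Wnt inhibitor Sfrp5, the sodium channel Scn7a, the matrix protein Mfap4 and 2 with no symbol. The higher ones were probe sets for Psip1, LOC100910237, a globin pair and 4 with no symbol. In all 16 the 3 group C arrays lay apart from the 3 group D arrays, as they did for 2514 probe sets (8.1%) with group C below and 2118 (6.82%) with group C above. Of the 16, 2 passed whichever of the 12 arrays was left out, Krt8 and the unnamed 1393302_at. The 16 also passed without group D replicate 3, and none of them passed when groups C and D were fitted alone, where limma called 0 probe sets while 465 lower and 349 higher differed 2-fold at an unadjusted p under 0.05 with no shared variance.

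**Figure D1:**
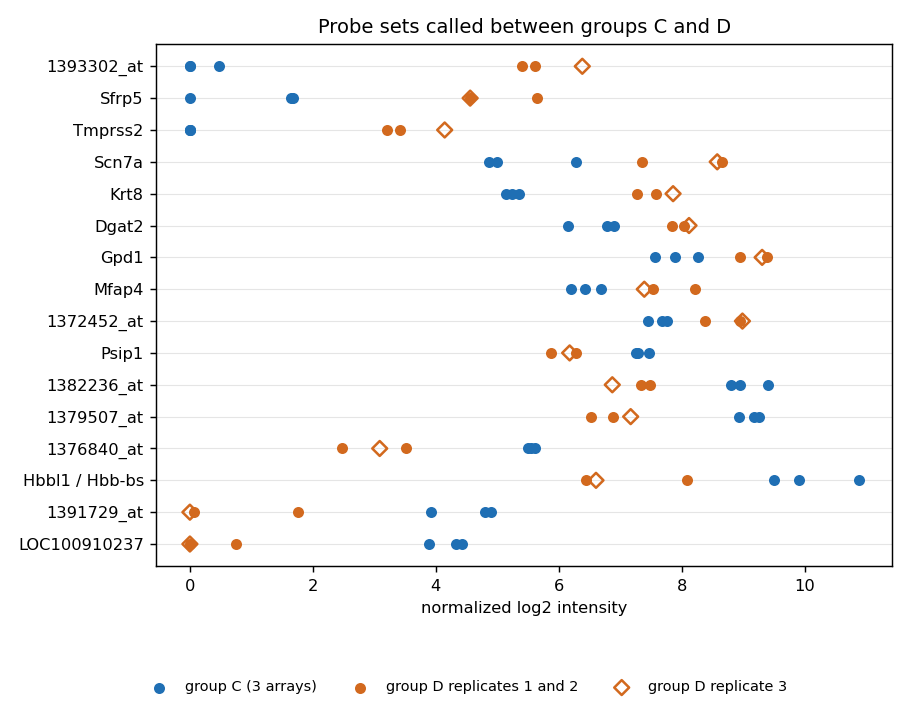
Normalized log2 intensity (horizontal axis) of the 16 probe sets called between groups C and D, with each array as a point and group D replicate 3 marked on its own. For Krt8 the group C arrays sit between 5.14 and 5.35 and the group D arrays between 7.27 and 7.86, and no probe set shows overlapping groups.

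Krt8 encodes keratin 8, an intermediate filament protein of simple epithelia and of mesothelium. Its promoter is shown because Krt8 was the named gene with the smallest adjusted p. The 250 bases before its start, chr7:135010340-135010589 on the minus strand of GRCr8 (RefSeq), hold TATAAA on both strands, overlapping, and the capitals mark it.
Krt8: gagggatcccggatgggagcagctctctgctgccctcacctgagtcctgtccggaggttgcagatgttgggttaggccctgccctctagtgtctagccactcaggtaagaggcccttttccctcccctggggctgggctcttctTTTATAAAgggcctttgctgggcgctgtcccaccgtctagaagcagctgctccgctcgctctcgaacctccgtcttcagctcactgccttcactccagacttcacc
TATAAA, searched on both strands, was in 12.9% of 33469 RefSeq promoters of this length. On the arrays Krt8 read 5.35, 5.14 and 5.24 in group C replicates 1 to 3 and 7.27, 7.58 and 7.86 in group D replicates 1 to 3. All 3 group C pups were below all 3 group D pups, and group D replicate 3 was the highest. The mean fell from 7.57 ± 0.29 (SD, n = 3) in group D to 5.24 ± 0.11 (SD, n = 3) in group C, which is 5.01-fold (log2 difference −2.33, SE 0.21, limma adjusted p = 0.00133). Without group D replicate 3 the difference was −2.19 (adjusted p = 4.99e-05).

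Other epithelial keratins had the same sign without passing the test with all arrays. Krt19, a keratin of ducts and intestinal epithelium, read 2.59, 2.55 and 4.60 in group C and 6.38, 7.13 and 7.21 in group D. Its groups did not overlap (−3.66, SE 0.70, adjusted p = 0.0934 in limma), and it passed without group D replicate 3 (−3.52, adjusted p = 0.00883). Krt18, the usual partner of Krt8, read 7.38, 7.01 and 7.02 in group C against 8.56, 8.48 and 6.27 in group D. Here group D replicate 3 was the lowest of the 6, so that Krt18 passed without that array (−1.39, adjusted p = 4.39e-05) and not with it (−0.64, adjusted p = 0.479). Tmprss2, a membrane serine protease of epithelia, was at the floor in all 3 group C pups and at 3.21, 3.41 and 4.14 in group D, at least 1.90-fold lower in group C against background (adjusted p = 0.0305), but its other probe set differed by −0.82 and did not pass (adjusted p = 0.675).

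Mesothelial genes, of the cells that cover the mesentery, include these keratins, Krt8 being the one past the adjusted test, and 2 that are not keratins had a different order of arrays from Krt8. Msln, mesothelin, read 5.04, 4.52 and 5.26 in group C and 7.01, 6.74 and 4.49 in group D, and Wt1, the transcription factor of mesothelium, 4.56, 3.80 and 4.45 against 5.29, 5.85 and 4.28. In both, group D replicate 3 lay within or below the group C range, whereas it was the highest array for Krt8. A dimmer Wt1 probe set, near background, had the opposite sign (0.17, limma adjusted p = 0.946). Of the 10 genes of that list, 5 were lower and 0 higher at an unadjusted p under 0.05 (median −1.07, against 12.2% and 7.42% of all genes and their median of −0.12), and 8 passed lower without group D replicate 3 (15% of all genes). The list holds genes that the study chose on these samples, so its direction is not independent evidence.

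Genes of the gut epithelium were low throughout and reached clear levels in 2 group D pups. The mean log2 intensity of the 14 measured genes of that list was 2.54, 2.56 and 2.23 in group C, and 2.70, 4.41 and 4.66 in group D. Lgals4, an intestinal galectin, read 3.66, 3.74 and 1.36 in group C and 2.36, 6.76 and 7.83 in group D. Car1, a carbonic anhydrase of red cells and colon that is not on the list, read 3.35, 3.25 and 3.41 against 3.91, 8.05 and 8.81. Both were therefore high in group D replicates 2 and 3 and at group C levels or near them in replicate 1. At an unadjusted p under 0.05, 6 of the 14 were lower in group C and 0 higher (12.2% and 7.42% of all genes), with a median difference of −1.15. None passed the adjusted test by the probe set that stood for it, with or without group D replicate 3. Tmprss2 is on this list, but its brighter probe set stood for it and not the one that was called. The intestinal lipid carriers Fabp1 and Fabp2 were within background on all group C arrays and on group D replicate 1. Krt8, in contrast, was at 7.27 in that same replicate, and the part of gut epithelium in its difference was not tested.

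Some genes of triacylglycerol synthesis and of fat cells formed the second set of lower genes. Gpd1, cytosolic glycerol 3-phosphate dehydrogenase, which makes the glycerol backbone of triacylglycerol from a glycolytic intermediate, read 7.57, 8.26 and 7.89 in group C and 8.94, 9.38 and 9.30 in group D. It fell 2.47-fold (log2 difference −1.30, SE 0.18, limma adjusted p = 0.0305, and −1.26 without group D replicate 3). Dgat2, which adds the last fatty acid to triacylglycerol, read 6.78, 6.90 and 6.15 against 8.04, 7.84 and 8.12 and fell 2.62-fold (−1.39, SE 0.19, adjusted p = 0.0305, and −1.34 without that array). The groups were apart for both genes, and group D replicate 3 was beside its own group. A second probe set of each had the same sign and did not pass with all arrays, at −1.25 for Gpd1 (adjusted p = 0.195) and −1.10 for Dgat2 (adjusted p = 0.148), and both passed without group D replicate 3 (adjusted p = 0.0127 and 0.021).

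Of the 12 measured genes of glycerol and triacylglycerol synthesis, 5 were lower and 1 higher at an unadjusted p under 0.05 (12.2% and 7.42% of all genes), with a median of −0.31 against −0.12 for all genes, and Gpd1 was the one past the adjusted test, since the brighter Dgat2 probe set stood for that gene. The list was mixed, with 7 differences negative and 5 positive. Gpd1 is also a gene that the study listed from these samples. Gpam, the first acyltransferase of the pathway, read 4.01, 3.73 and 4.27 in group C and 5.34, 5.32 and 4.97 in group D (−1.21, adjusted p = 0.156). Agpat2, the next acyltransferase, differed by −0.82 (adjusted p = 0.124) and Dgat1, the other diacylglycerol acyltransferase, by −0.49 (adjusted p = 0.19). In these 3 genes the groups did not overlap, and all 3 passed without group D replicate 3. The higher one was Pck1, which makes glycerol 3-phosphate from non-sugar carbon in fat cells, at 8.22, 8.18 and 7.85 against 7.39, 7.21 and 7.48 (0.72, adjusted p = 0.144, and 0.05 with the values as deposited).

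Of the 18 adipocyte genes, 10 were lower and 0 higher at an unadjusted p under 0.05 (12.2% and 7.42% of all genes), with a median of −0.65 against −0.12 for all genes, and 1 passed the adjusted test, Sfrp5. G0s2, an inhibitor of triacylglycerol breakdown, read 6.70, 6.54 and 6.52 in group C and 7.75, 8.38 and 7.84 in group D (−1.41, SE 0.26, adjusted p = 0.081). Slc2a4, the insulin-responsive glucose transporter, read 5.08, 5.09 and 5.36 against 6.06, 6.25 and 6.75 (−1.18, adjusted p = 0.13). Cidec, a protein that enlarges lipid droplets, differed by −1.19 and Adrb3, the beta-3 adrenergic receptor of fat cells, by −0.92. The groups were apart in all 4 genes, and all 4 passed without group D replicate 3, where 7 of the 18 did (15% of all genes passed lower there). The lipid droplet coats Plin1, Plin2 and Plin4 differed by −0.68, −0.23 and −0.40, and Cfd, the secreted protease adipsin, by −1.29, and none of them passed with all arrays. The hormone Adipoq read 8.85, 9.10 and 9.38 against 9.30, 9.96 and 9.95, and Fabp4, the fatty acid carrier of fat cells, differed by −0.22 (adjusted p = 0.519). In 2 of the 18 the difference was positive, at 1.38 for Lep, the hormone leptin, and 0.08 for Lpl, lipoprotein lipase. The odd array, group D replicate 3, was nearer to group C in 3 of the 18 genes, against 69.3% of all genes.

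Sfrp5, a secreted inhibitor of Wnt proteins that fat tissue makes, was within background on all 3 group C arrays at 1.68, 1.65 and 0, and above it in group D at 4.55, 5.65 and 4.56. All 3 group C pups were thus below all group D pups. The fall was at least 4.77-fold against background (log2 difference −3.81 in limma, adjusted p = 0.0305, and −3.99 without group D replicate 3). Mrap, an accessory protein of the melanocortin 2 receptor found in adrenal gland and fat, was at or near the floor in group C (0, 0 and 0.29) and at 3.48, 4.33 and 4.76 in group D. Its groups did not overlap but it did not pass (adjusted p = 0.124, and 0.0191 without group D replicate 3).

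Several fatty acid synthesis genes were highest in 1 group D pup. Fasn, fatty acid synthase, read 8.87, 9.78 and 8.67 in group C and 9.87, 9.81 and 10.9 in group D. Thrsp, a lipogenic regulator also called Spot 14, read 8.28, 8.84 and 8.21 against 9.10, 9.29 and 10.7, and Acaca, acetyl-CoA carboxylase, 7.69, 8.13 and 7.49 against 8.25, 8.30 and 9.42. Group D replicate 3 was the highest of the 6 pups in each, and Elovl6, the elongase of palmitate, had the same order at the top, with 8.12 in that pup and 5.87 to 6.38 in the other 5. Of the 15 measured genes of fatty acid synthesis and desaturation, 7 were lower and 0 higher at an unadjusted p under 0.05 with all arrays (12.2% and 7.42% of all genes, median −0.63), and without that pup 3 passed the adjusted test lower and 1 higher (15% and 8.03% of all genes). That pup was nearer to group C in 7 of the 15. A second Fasn probe set differed by −1.54 (adjusted p = 0.131) and passed without that pup (−1.07, adjusted p = 0.0161). The higher one was the desaturase Scd, at 10.1, 10.7 and 10.5 in group C and 9.01, 8.45 and 11.9 in group D, which differed by 0.68 with all arrays (adjusted p = 0.614, and −0.11 with the values as deposited) and by 1.74 without group D replicate 3 (adjusted p = 0.000704). Srebf1, the transcription factor that drives these genes, read 7.12, 7.26 and 6.88 against 7.96, 8.35 and 7.16 (−0.73, adjusted p = 0.177, passing without group D replicate 3 at −1.07).

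Of the 19 measured PPAR and fatty acid oxidation genes, 3 were higher and 1 lower in group C at an unadjusted p under 0.05, with a median of −0.05, against 7.42% higher and 12.2% lower of all genes. Angptl4, a PPAR target that blocks lipoprotein lipase, read 8.98, 8.59 and 8.51 in group C and 7.49, 6.44 and 7.66 in group D (1.5, SE 0.26, adjusted p = 0.0766). Pdk4, a PPAR target that turns off pyruvate dehydrogenase, read 6.59, 5.99 and 5.76 against 3.80, 4.39 and 5.23 (1.64, SE 0.35, adjusted p = 0.123). Cpt1a, which admits long-chain fatty acids to mitochondria, read 8.38, 8.31 and 8.40 against 7.64, 7.51 and 8.07 (0.62, adjusted p = 0.125, and −0.05 with the values as deposited). The groups did not overlap in any of the 3, and the 3 were those of the list that passed higher without group D replicate 3, at 1.74, 2.03 and 0.79. For cholesterol synthesis, 6 of 12 genes were lower and 0 higher at an unadjusted p under 0.05 (12.2% and 7.42% of all genes, median −0.43), among them Mvd, mevalonate diphosphate decarboxylase, at −0.67 and Dhcr7, the last reductase of the pathway, at −0.84.

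**Figure D2:**
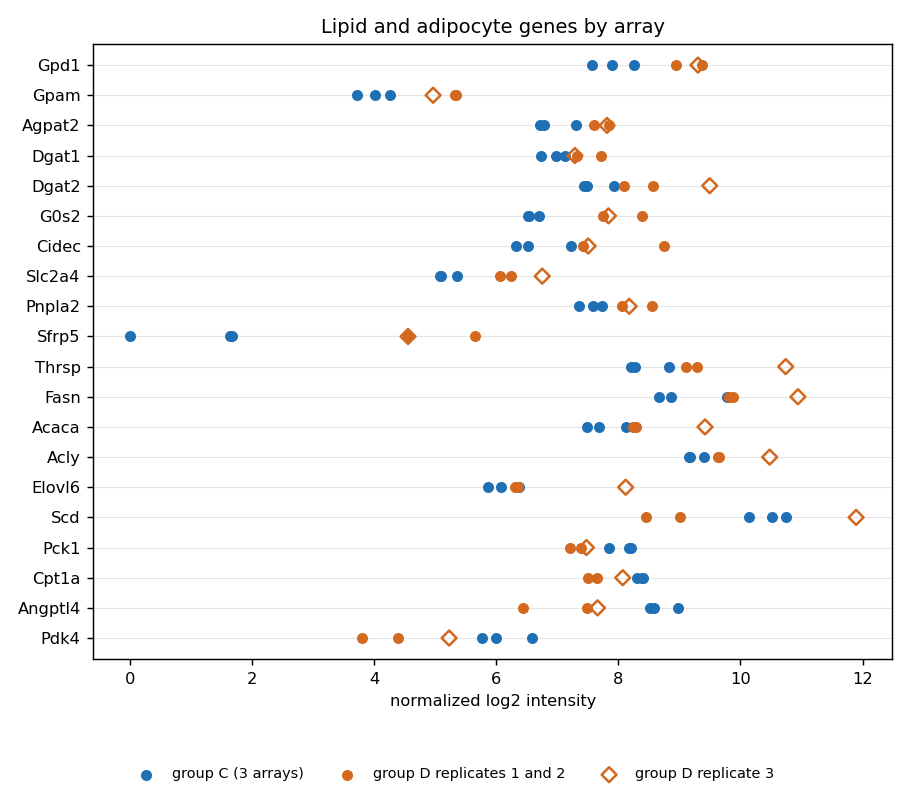
Normalized log2 intensity (horizontal axis) of lipid and adipocyte genes, with each array as a point and group D replicate 3 marked on its own. Group C lies below group D for Gpd1 and Dgat2 and above it for Angptl4 and Pdk4, and group D replicate 3 is the highest array for Fasn, Thrsp and Elovl6.

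Scn7a, a sodium channel of Schwann cells and sensory neurons that senses sodium rather than voltage, read 5.00, 4.87 and 6.27 in group C and 7.35, 8.65 and 8.57 in group D. The groups were apart by more than a log2 unit, and Scn7a fell 7.02-fold (−2.81, SE 0.41, limma adjusted p = 0.0305, and −2.63 without group D replicate 3). Of the 12 measured glia and Schwann cell genes, 6 were lower and 0 higher at an unadjusted p under 0.05 (12.2% and 7.42% of all genes, median −0.79), and Scn7a was the one past the adjusted test. Pmp22, a myelin protein also made by fibroblasts, read 8.32, 8.12 and 8.22 against 9.23, 9.87 and 8.83 (−1.09, adjusted p = 0.0813). Metrn, a glial factor that promotes axon growth, read 3.62, 3.81 and 3.92 against 5.04, 5.56 and 4.59 (−1.28, adjusted p = 0.193). Both passed without group D replicate 3, as 3 of the 12 did (15% of all genes passed lower there). Ncam1, the neural cell adhesion molecule, was within background in group C (1.27, 1.07 and 0.29) and at 3.91, 4.44 and 4.14 in group D, at least 2.82-fold apart (adjusted p = 0.0989).

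Mfap4, a microfibril protein that binds elastin and collagen, read 6.19, 6.68 and 6.42 in group C and 7.53, 8.22 and 7.39 in group D. It fell 2.43-fold with all arrays (−1.28, SE 0.20, limma adjusted p = 0.0499), and that call was lost with any array but group D replicate 3 left out. Of the 24 measured fibroblast and extracellular matrix genes, 16 were lower and 0 higher at an unadjusted p under 0.05 (12.2% and 7.42% of all genes), 11 had group C wholly below group D (10.7% of all genes did), and the median was −0.72. Mfap4 was the one past the adjusted test. Igf2, the fetal growth factor, read 5.66, 5.6 and 5.64 against 7.91, 8.68 and 6.47 (−2.06, SE 0.39, adjusted p = 0.0934). Col1a1, the main chain of type I collagen, read 9.42, 9.31 and 9.80 against 10.5, 11.3 and 10.2 (−1.13, adjusted p = 0.119). Fbln1, a fibulin of elastic fibres, differed by −2.16 (adjusted p = 0.125). In these 3, group D replicate 3 lay between the other group D arrays and group C, and without it 19 of the 24 passed lower and 0 higher (15% and 8.03% of all genes). The list holds genes that the study chose on these samples, so its direction is not independent evidence. Apod, a lipid-binding apolipoprotein of fibroblasts and glia that is on none of the lists, was within background in group C (0.46, 0.76 and 1.05) and at 5.08, 6.75 and 3.80 in group D, at least 5.83-fold apart (adjusted p = 0.14, and 0.00734 without group D replicate 3).

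Among the higher probe sets, 1 of the 4 for Psip1, a chromatin-binding coactivator also known as LEDGF, read 7.26, 7.28 and 7.46 in group C and 6.28, 5.88 and 6.18 in group D. It rose 2.34-fold (log2 difference 1.22, SE 0.18, limma adjusted p = 0.0305), and by 0.55 with the values as deposited. The other 3 probe sets of Psip1 differed by 0.27, 0.59 and −0.63, so the gene as a whole has no single value. LOC100910237, a locus with no gene name, read 4.33, 3.88 and 4.42 in group C and was within background in group D at 0.74, 0 and 0. It rose at least 2.69-fold against background (adjusted p = 0.0322).

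A probe set shared by the beta globins Hbbl1 and Hbb-bs, chains of haemoglobin, read 9.91, 10.9 and 9.50 in group C and 6.45, 8.08 and 6.60 in group D. It rose 8.32-fold (3.06, SE 0.43, limma adjusted p = 0.0305), but a companion probe set of the same pair read 9.67, 9.47 and 9.32 against 9.25, 8.44 and 9.86 and differed by 0.30 (adjusted p = 0.594). Hbb, the main adult beta chain, differed by 0.30, the alpha chain probe sets by 0.04 to 0.26, and Hba-a3, an alpha-like chain, by −0.24, so the difference was that of a single probe set and not of globins at large. The pair are near-copies, and their promoters are printed to show how alike they are: 236 of 253 aligned positions are identical, 93.3%. They lie at chr1:167650236-167650485 (Hbbl1) and chr1:167631631-167631880 (Hbb-bs), minus strand of GRCr8 (RefSeq), with CCAAT and TATAAA in capitals.
Hbbl1: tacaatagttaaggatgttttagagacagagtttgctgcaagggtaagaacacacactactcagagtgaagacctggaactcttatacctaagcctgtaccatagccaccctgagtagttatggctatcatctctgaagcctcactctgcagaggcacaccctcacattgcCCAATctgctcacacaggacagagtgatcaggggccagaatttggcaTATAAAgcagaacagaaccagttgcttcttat
Hbb-bs: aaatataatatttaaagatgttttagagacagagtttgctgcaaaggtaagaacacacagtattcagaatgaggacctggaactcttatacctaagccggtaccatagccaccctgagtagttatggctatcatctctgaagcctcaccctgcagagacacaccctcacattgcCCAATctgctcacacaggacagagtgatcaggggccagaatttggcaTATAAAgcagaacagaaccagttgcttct
CCAAT, searched on both strands, was in 34.02% of promoters.

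Beyond the called genes, the largest differences with groups apart did not pass the adjusted test. Pln, phospholamban, the brake on the calcium pump of heart and smooth muscle, read 2.32, 0.62 and 0.08 in group C and 5.58, 5.73 and 4.54 in group D, at least 6.14-fold apart (limma adjusted p = 0.0735, and 0.00169 without group D replicate 3). Mlip, a lamin-interacting protein of muscle, read 0.58, 0.33 and 0.08 against 3.89, 4.85 and 3.25 (adjusted p = 0.0766). In these probe sets group D replicate 3 was with its own group, but a second Pln probe set read 2.19, 0 and 3.59 against 6.19, 5.77 and 3.30, with that array inside the group C range. On the higher side, Gria2, a glutamate receptor subunit, read 5.32, 4.89 and 3.88 in group C and was within background in group D at 1.18, 1.34 and 2.49, at least 3.76-fold apart (adjusted p = 0.234). Sptb, the beta spectrin of red cells, read 3.67, 3.88 and 2.57 against 0.61, 1.39 and 0.65, at least 1.5-fold apart (adjusted p = 0.162). Cr1l, a complement regulator, read 5.64, 5.42 and 6.06 against 3.16, 1.61 and 4.92 (2.48, adjusted p = 0.154, and 3.33 without group D replicate 3, adjusted p = 0.000532).

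The 6 called probe sets with no symbol include the most distinct probe set of the comparison. 1393302_at read 0, 0.48 and 0 in group C and 5.40, 5.61 and 6.38 in group D. It fell at least 8.78-fold against background (log2 difference −5.64, SE 0.36, limma adjusted p = 3.43e-05). The other lower one, 1372452_at, read 7.44, 7.75 and 7.67 against 8.38, 8.95 and 8.98 and fell 2.22-fold. Of the higher ones, 1379507_at read 8.93, 9.18 and 9.25 against 6.88, 6.52 and 7.17 and rose 4.80-fold, and 1382236_at read 9.39, 8.79 and 8.94 against 7.33, 7.47 and 6.87 and rose 3.52-fold. Both passed in 10 of the 12 fits that left out 1 array. The others, 1376840_at and 1391729_at, rose 5.79-fold and at least 3.37-fold.

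Leaving out group D replicate 3, the array set apart for its likeness to group C, turned a handful of calls into many. The added calls depend on that choice. With the remaining 11 arrays normalized anew, 909 probe sets were called lower (2.93%) and 1985 higher (6.39%). Leaving out any other array gave 2 to 8 lower and 0 to 6 higher. The array left out was set beside the calls made without it. For 711 of the 909 lower probe sets (78.2%) and 1897 of the 1985 higher ones (95.6%), group D replicate 3 lay nearer to group C than to its fellows, and within the range of the group C arrays for 358 and 950. Over all genes, with 1 probe set for each, that share was 69.3%, and the share among the lower calls was not far from it. The calls are counted in probe sets, with or without a symbol, so the sets compared are not alike. On RNA quality, the 3′ to 5′ signal ratio of Gapdh was 1.22 in it, inside the 1.06 to 1.28 of the other 5, and that of beta-actin was 1.91, above their 1.30 to 1.74. The part of RNA quality in its position was not tested. The 2 directions differed in what they held. Probe sets without a symbol were 14.5% of the lower calls and 56.2% of the higher calls, against 31.5% of all tested.

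**Figure D3:**
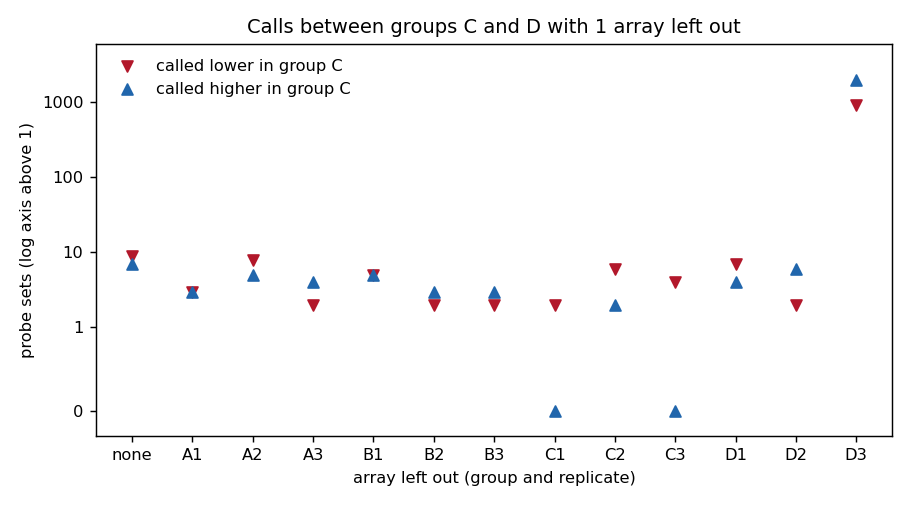
Number of probe sets (vertical axis, log scale above 1) called lower and higher in group C against group D with all 12 arrays and with each array left out in turn (horizontal axis). The counts are 9 and 7 with all arrays and 909 and 1985 without group D replicate 3, and 2 to 8 and 0 to 6 with any other array left out.

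Of the 34 lists, smooth muscle had the lowest median without group D replicate 3, −2.39 against −0.20 for all genes. Over the 20 measured, the mean was 5.75, 5.44 and 6.05 in group C and 8.37, 8.26 and 6.05 in group D. Actg2, the gamma actin of visceral smooth muscle, read 4.04, 2.86 and 6.61 in group C against 11.4, 11.2 and 5.88 in group D. Replicates 1 and 2 of group D were far above all group C pups, and replicate 3 lay among them. Actg2 did not pass with all arrays (−4.98, SE 1.21, limma adjusted p = 0.141) and did without group D replicate 3 (−6.80, adjusted p = 8.94e-05). Cnn1, the thin-filament protein calponin, read 3.88, 3.57 and 5.34 against 8.97, 8.70 and 5.07, with the same arrangement. Myh11, smooth muscle myosin, read 5.59, 5.59 and 6.80 against 9.75, 10.1 and 7.55, and here group D replicate 3 also stayed above group C (−3.15, SE 0.52, adjusted p = 0.0735). A dimmer Myh11 probe set read 3.13, 1.17 and 3.66 against 5.16, 4.44 and 1.47 (−1.03, limma adjusted p = 0.61). In that probe set group D replicate 3 lay inside the group C range. Acta2, the vascular smooth muscle actin, read 7.37, 6.98 and 6.75 against 9.19, 9.60 and 6.99 (−1.56, adjusted p = 0.175, and −2.37 without group D replicate 3, adjusted p = 1.13e-05). In all, 17 of the 20 were lower and 0 higher at an unadjusted p under 0.05, 0 passed the adjusted test with all arrays, and 18 passed lower without group D replicate 3, against 12.2%, 0.0352% and 15% of all genes lower by those rules. The median was −1.52 over all arrays. The study chose some of these genes on these samples, so their direction is not independent evidence.

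**Figure D4:**
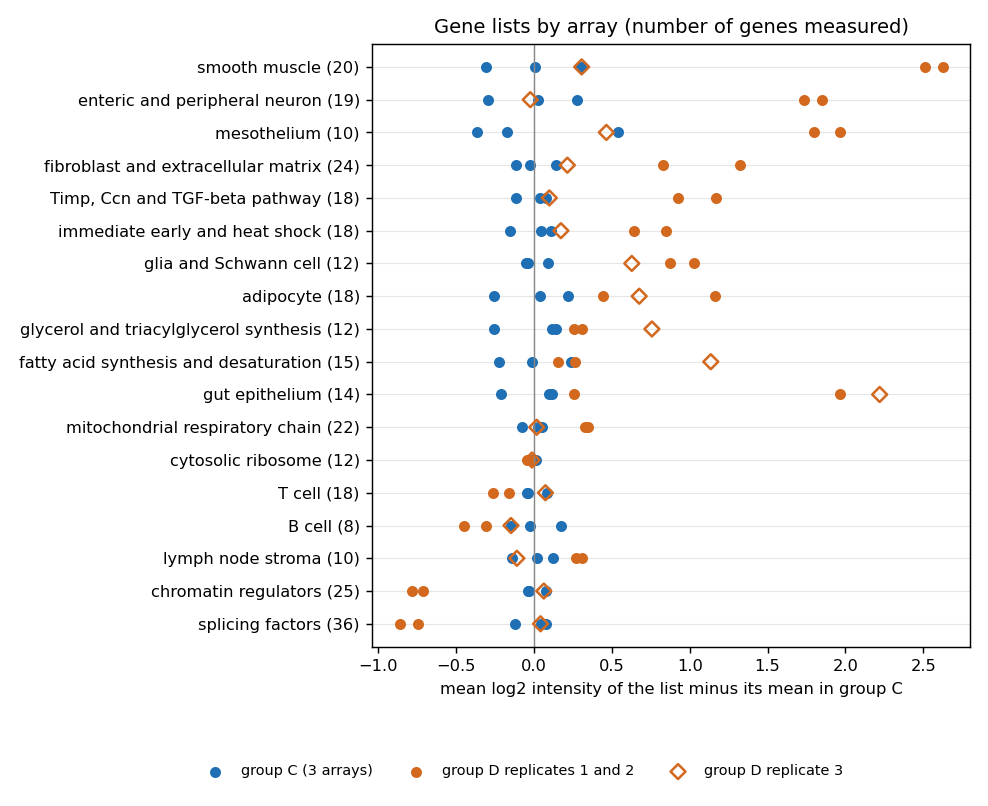
Mean normalized log2 intensity of each gene list minus its mean in group C (horizontal axis), with each array as a point, group D replicate 3 marked on its own and the number of genes measured in brackets. Group D replicate 3 falls at group C levels for smooth muscle (6.05 in it, 5.44 to 6.05 in group C) and splicing factors (9.32 in it, 9.16 to 9.36 in group C), and with the other group D arrays for adipocyte genes.

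Several neuronal genes were low in group C and in group D replicate 3 and higher in the other 2 group D pups. Gal encodes galanin, a neuropeptide of enteric and sensory nerves. The 250 bases before its start, chr1:210084573-210084822 on the minus strand of GRCr8 (RefSeq), are shown beside those of Ccn2, chr1:22624615-22624864 on the same strand, as both were among the genes that the study set at the centre of its network, and each has 1 TATAAA, in capitals, at 41 and 31 bases before the start.
Gal: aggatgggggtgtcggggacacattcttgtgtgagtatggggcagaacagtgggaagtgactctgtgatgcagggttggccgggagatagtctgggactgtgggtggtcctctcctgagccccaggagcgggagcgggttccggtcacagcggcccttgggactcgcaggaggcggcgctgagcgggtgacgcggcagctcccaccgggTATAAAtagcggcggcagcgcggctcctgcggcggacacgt
Ccn2: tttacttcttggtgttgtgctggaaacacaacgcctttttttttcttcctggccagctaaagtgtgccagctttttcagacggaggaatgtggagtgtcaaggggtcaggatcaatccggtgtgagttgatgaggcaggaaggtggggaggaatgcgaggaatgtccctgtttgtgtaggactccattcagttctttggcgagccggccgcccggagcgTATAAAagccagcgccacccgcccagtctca
Gal read 2.77, 3.07 and 2.38 in group C and 7.53, 7.67 and 3.39 in group D. It was above background on 1 of the 3 group C arrays, and group D replicate 3 lay just above group C (−3.46, limma adjusted p = 0.178, and −4.88 without that array, adjusted p = 0.00209). Snap25, which fuses synaptic vesicles with the membrane, read 0, 0.76 and 0 against 5.61, 5.56 and 0.33, and the granule protein Scg2 0.46, 0 and 0.90 against 5.50, 5.46 and 1.03. All group C pups and group D replicate 3 were within background for both. Vip, a neuropeptide that relaxes gut muscle, read 2.66, 3.09 and 0.90 against 5.53, 5.04 and 3.04. Syt1, the calcium sensor of synaptic vesicles, read 2.54, 1.71 and 2.69 against 3.49, 3.80 and 2.25 and did not pass with or without group D replicate 3 (−0.87 and −1.33, adjusted p = 0.448 and 0.132). Of the 19 measured neuronal genes 9 were lower and 1 higher at an unadjusted p under 0.05 (12.2% and 7.42% of all genes), with a median of −0.91, and 9 passed lower and 0 higher without group D replicate 3 (15% and 8.03% of all genes). In 4 of the 19 the difference was positive, and Nos1 and Chat, enzymes that make the transmitters nitric oxide and acetylcholine, differed by −0.15 and −0.25. The list holds genes that the study chose on these samples, so its direction is not independent evidence. Cacna1a, a calcium channel of nerve endings, was an exception in that group D replicate 3 was with its group: it read 0.97, 0.48 and 0 against 3.73, 4.28 and 3.69, at least 2.36-fold apart (adjusted p = 0.113).

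Genes of matrix turnover and growth factor signalling followed. Timp1, an inhibitor of matrix metalloproteinases, read 6.86, 6.60 and 6.47 in group C and 8.77, 8.94 and 6.51 in group D. Ccn2, the connective tissue growth factor, read 6.28, 6.10 and 6.70 against 8.0, 8.84 and 6.56. Ackr3, a chemokine scavenger receptor, read 6.35, 6.76 and 7.0 against 8.11, 8.26 and 6.84. In all 3 genes group D replicate 3 lay within the range of group C. With all arrays they differed by −1.43, −1.44 and −1.03 and none passed (limma adjusted p = 0.181, 0.166 and 0.174), and without that array by −2.22, −2.07 and −1.48, and all passed (adjusted p = 7.01e-06, 0.000118 and 0.000403). Of the 18 measured genes of the Timp, Ccn and TGF-beta list, which holds Timp1 and Ccn2, 9 were lower and 0 higher at an unadjusted p under 0.05 (12.2% and 7.42% of all genes, median −0.56). The study chose Timp1 and Ccn2 on these samples, so the direction of the list is not independent evidence.

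Many splicing factors and chromatin regulators had higher values in group C than in group D replicates 1 and 2. Over the 36 splicing factors the mean was 9.32, 9.16 and 9.36 in group C and 8.42, 8.54 and 9.32 in group D. Clk1, a kinase of splicing factors, read 10.5, 10.4 and 10.6 against 8.45, 8.75 and 10.6, and Pnisr, a serine- and arginine-rich nuclear protein, 9.41, 9.24 and 9.75 against 6.95, 6.98 and 9.35. Atrx, a chromatin remodeller, read 7.38, 6.78 and 7.68 against 5.45, 5.67 and 7.26. In all 3, group D replicate 3 was at group C levels or near them. Of the splicing factors 19 were higher and 0 lower at an unadjusted p under 0.05 (7.42% and 12.2% of all genes, median 0.46), and of the 25 chromatin regulators 14 were higher and 1 lower (median 0.50). None of either list passed with all arrays, while 24 and 17 passed higher and 0 lower without group D replicate 3 (8.03% and 15% of all genes). Both lists hold a few genes that the study chose on these samples, so their direction is not fully independent evidence. With the values as deposited, the medians turned to −0.25 and −0.17 and 24 and 17 members changed sign, but both lists stayed 0.54 and 0.63 above the median gene.

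The probe set of Smc4, a condensin subunit outside those lists, had the same arrangement, at 7.73, 7.10 and 7.51 in group C and 3.9, 4.44 and 6.94 in group D (2.35, limma adjusted p = 0.15, and 3.29 without group D replicate 3, adjusted p = 6.40e-05). Probe sets of 1 gene could disagree in this set. For Hnrnpu, an RNA-binding protein of the nuclear matrix, 1 probe set read 8.71, 8.81 and 8.95 against 5.11, 5.69 and 9.03, while the brighter one read 11, 10.9 and 11 against 10.8, 10.7 and 10.9. The brighter probe set differed by 0.18 and did not pass with or without group D replicate 3.

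The stress and energy lists had negative medians. Of 18 immediate early and heat shock genes 8 were lower and 0 higher at an unadjusted p under 0.05 (12.2% and 7.42% of all genes, median −0.43). Hspb1, a small heat shock protein abundant in muscle, read 5.47, 5.92 and 5.94 in group C and 7.91, 8.53 and 5.73 in group D, and Cryab, a related chaperone of muscle and glia, 5.74, 5.40 and 4.88 against 7.21, 7.45 and 5.79. The group D array nearest to group C was again replicate 3. The study chose both of these genes on these samples. Of 22 mitochondrial respiratory chain genes 8 were lower and 0 higher by the same rule (median −0.19), and Cyc1, cytochrome c1, read 9.25, 9.17 and 9.14 against 9.96, 9.85 and 9.27 (−0.51, limma adjusted p = 0.169). The 12 cytosolic ribosome genes had a median of 0.00 and the 6 housekeeping genes of −0.04, with none of them at an unadjusted p under 0.05.

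Taken as lists, genes of the lymphocytes that make up most of a lymph node differed little. The mean of the 18 T cell genes was 8.65, 8.77 and 8.66 in group C and 8.53, 8.43 and 8.77 in group D, with a median difference of 0.04 (−0.09 after centring on the 75th percentile). At an unadjusted p under 0.05, 1 was lower and 2 higher (12.2% and 7.42% of all genes). Il7r, the interleukin 7 receptor of naive T cells, has 2 probe sets. The first read 8.79, 8.35 and 8.45 in group C and 6.73, 7.01 and 8.54 in group D, and the second 8.85, 8.21 and 8.72 against 6.46, 6.80 and 7.86. Neither passed with all arrays (1.10 and 1.56, limma adjusted p = 0.182 and 0.12), and both did without group D replicate 3 (1.67 and 1.97, adjusted p = 0.000167 and 0.000283). Grb2, an adaptor of receptor tyrosine kinases, has 3 probe sets that differed by −0.08, −0.01 and 1.01, and the last of them passed without group D replicate 3 (1.67, adjusted p = 0.00013).

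The B cell list of 8 had a median of 0.20 and all 8 differences were positive, with 2 higher and 0 lower at an unadjusted p under 0.05 (7.42% and 12.2% of all genes). With the values as deposited 7 of them changed sign, and the list median stayed 0.32 above that of all genes. Ms4a1 read 10.3, 10.4 and 10.3 in group C and 9.90, 9.69 and 9.97 in group D (0.48, limma adjusted p = 0.124, and −0.31 with the values as deposited). Cr2, the complement receptor of B cells and follicular dendritic cells, read 9.98, 10.03 and 10.3 against 8.54, 8.27 and 10.1 (1.16, adjusted p = 0.167). In plasma cells, Jchain, the joining chain of secreted antibodies, read 9.08, 8.80 and 9.79 against 8.74, 7.66 and 8.41, while Sdc1, a proteoglycan of plasma cells and epithelia, read 5.56, 5.55 and 5.90 against 6.95, 7.05 and 6.23. These 2 plasma cell markers thus had opposite signs with the groups apart in each, and neither passed with all arrays (adjusted p = 0.182 and 0.113). Of the 9 measured plasma cell and IgA genes, 2 were lower and 1 higher at an unadjusted p under 0.05 (12.2% and 7.42% of all genes). Their median was 0.06, with 4 differences negative and 5 positive. Of the 8 MHC class II genes 1 was lower and 1 higher, of the 13 myeloid genes 2 were lower, of the 15 interferon genes 2 were lower and 2 higher, and of the 19 cytokines and their receptors 2 were lower, all at an unadjusted p under 0.05. Over all genes, 12.2% were lower and 7.42% higher by that rule, and the counts of the MHC class II, myeloid, interferon and cytokine lists are near those shares.

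Among the lymph node stroma genes, Ccl19, the chemokine that draws T cells and dendritic cells into the node, read 10.5, 10.3 and 10.1 in group C and 11.3, 11.2 and 10.7 in group D (−0.74, limma adjusted p = 0.148, and −0.91 without group D replicate 3, adjusted p = 0.00392). The groups did not overlap, and group D replicate 3 was the lowest of its group. Of the 10 genes on that list, 2 were lower and 1 higher at an unadjusted p under 0.05 (12.2% and 7.42% of all genes), with a median of −0.03. Lcn2, an iron-binding protein of neutrophils and epithelia, read 4.25, 4.15 and 4.50 against 5.86, 6.46 and 4.85, and Mmp8, the collagenase of neutrophils, 6.15, 6.19 and 5.87 against 4.90, 4.77 and 5.52. These 2 members of the neutrophil list had opposite signs, and neither passed with all arrays (adjusted p = 0.139 and 0.156). Of the 9 measured neutrophil genes, 1 was lower and 1 higher at an unadjusted p under 0.05 (12.2% and 7.42% of all genes). The median was 0.11, with 5 differences positive and 4 negative, the largest being S100a8 at 1.77.

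Group C was also set against the groups with 5 weeks of CLA, which shows whether the genes called against group D differ among the CLA groups. Against group B, the gavage group with CLA in gestation too, limma called 1 probe set lower (0.00322%) and 0 higher (0%), with 401 lower (1.29%) and 359 higher (1.16%) at an unadjusted p under 0.05 and 2-fold. The one called was 1393302_at, with a mean of 5.79 in group B (difference −5.63, adjusted p = 3.49e-05), so that group C stood apart from the gavage group as it did from group D. Krt8 averaged 5.11 in group B and 5.80 in group A against 5.24 in group C, and its difference from group A was −0.56 (adjusted p = 0.0628). Scn7a averaged 5.77 in group B and 5.05 in group A. Sfrp5 averaged 3.53 in group B and 3.80 in group A, between group C and group D, with a difference of −2.42 from group B that did not pass (adjusted p = 0.402) and of −2.69 from group A that did (adjusted p = 0.00215). Against group A, 2209 probe sets were called lower in group C (7.12%) and 3038 higher (9.79%), and 32.6% of all probe sets passed the adjusted p alone.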

How the data were processed

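RNA of mesenteric lymph nodes from 12 pups, 3 in each of 4 groups taken from the sample titles, was hybridised to 12 1-colour oligonucleotide arrays, 1 pup each. The authors deposited MAS5 intensity per probe set on a linear scale; no version was named. Probe-level files were not used here. Values were log2 transformed, with zeros set to the smallest positive value, and quantile normalized over the 12 arrays, which takes out any difference in overall level. Values under 1 were then raised to 1. Control probe sets (57) were left out. Gene symbols came from the platform annotation, and 9780 probe sets stayed unnamed. limma 3.58.1 in R 4.3.3 was fitted to all 4 groups (lmFit, eBayes with trend, 8 residual degrees of freedom), with Benjamini-Hochberg adjustment over 31042 probe sets, a threshold of 0.05 and a minimum of 2-fold. With 3 arrays against 3 an exact permutation test of a single gene cannot go under p = 0.1, and the number of arrays limits the precision. Background was set per array from 27 probe sets of absent spike RNA, at their 95th percentile. Where a whole group lay within background, the fold was taken against background and is a lower bound ("at least").

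Named genes were every called probe set, the 15 largest falls and the 15 largest rises with 1 symbol, an unadjusted p under 0.05, groups apart and the brighter group above background (also among calls without group D replicate 3), members of 34 fixed gene lists, and 9 genes that the study measured again or named in its text. Members and lists were chosen with earlier results of these data known. The smooth muscle, neuron, mesothelium, matrix, Timp and Ccn, heat shock, splicing, chromatin, glycerol synthesis, eicosanoid, T cell and endothelium lists, and perhaps others, hold genes the study chose on these samples. The script was tested on simulated data. Alternatives were other scalings, a floor of 32, leaving out dim probe sets, other variance settings, array weights, groups C and D alone, 1 probe set per gene, a replicate block and leaving out each array. Promoters were the 250 bases before the start in RefSeq (GRCr8); 13 of 17 genes looked up were in that table.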

Additional observations from a re-analysis of the deposited data

Results flagged for a closer look

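Of the 16 called probe sets and 12 probe sets of Ccn2, Timp1, Gal, Syt1, Grb2, Actg2, Acta2, Il7r and Ackr3, 12 differed between group C and group A and 1 between group C and group B at an adjusted p under 0.05 in limma, so that their difference from group D was not of the same size in the CLA groups. The probe set 1393302_at differed from both, by −5.63 from group B and −6.32 from group A, with group C at the floor. Relative to group A, group C was lower for Sfrp5 (−2.69), Dgat2 (−1.07), Gpd1 (−0.94), Mfap4 (−1.20) and 1 probe set of Grb2 (−0.53). It was higher than group A for Psip1 (2.58), 1382236_at (2.33), 1379507_at (2.80), 1376840_at (2.03) and both probe sets of Il7r (2.48 and 2.18). Over all probe sets, 32.6% differed between groups C and A at that threshold, and 0.00322% between groups C and B.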

How the results depend on the processing

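With 3 arrays in a group and 1 of group D apart from the others, the number of calls between groups C and D depended on the setting, while Krt8 passed in 23 of its 24 alternatives (adjusted p = 0.0668 with groups C and D alone). The calls against 9 lower and 7 higher were 3992 and 49 with the values as deposited, 2 and 3 with a floor of 32, 4 and 2 with no variance trend, 21 and 12 with robust variance, 862 and 1802 with array weights, 0 and 0 with groups C and D alone, 925 and 1357 at an unadjusted p, 465 and 349 at an unadjusted p with no shared variance in groups C and D alone, and 4 and 1 with 1 probe set per gene. Leaving out the dimmest 40% gave 16 lower. Leaving out 1 array gave 2 to 909 lower and 0 to 1985 higher; without group D replicate 3 there were 909 and 1985, without group C replicate 1 there were 2 and 0, without group C replicate 2 there were 2 higher, without group C replicate 3 there were 4 and 0, without group D replicate 1 there were 4 higher, without group D replicate 2 there were 2 lower, without group A replicate 1 there were 3 and 3, without group A replicate 3 there were 2 and 4, without group B replicate 1 there were 5 lower, and without group B replicate 2 or 3 there were 2 and 3.

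Without group D replicate 3, the 909 lower and 1985 higher became 7663 and 768 with the values as deposited, 403 and 1007 with a floor of 32, 1545 lower at an unadjusted p, 456 higher with 1 probe set per gene, and 496 to 915 lower and 1543 to 1995 higher with a further array left out (496 without group D replicate 2). Between groups C and B, 1 call became 2 with the values as deposited, 3 with no trend, 17 with array weights, 760 at an unadjusted p, 0 with 1 probe set per gene and 1 to 14 with 1 array left out, 14 of them without group D replicate 3. Between groups C and A, 5247 calls became 8050 with the values as deposited, 3251 with a floor of 32, 2851 with 1 probe set per gene and 4297 to 5798 with 1 array left out. The differences of Grb2 near 0 changed sign: 1368386_at to 0.055 with array weights, and it ran from −0.089 to 0.031 with 1 array left out (above 0 without group C replicate 2 or 3 or group D replicate 1 or 3), and 1368385_a_at ran from −0.21 to 0.026 (above 0 without group D replicate 1).

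The replicate numbers were not taken as pairs in the main fit. The deviations of same-numbered arrays of groups C and D from their group means correlated at 0.038, −0.00056 and 0.046. With 3 arrays in a group and group D replicate 3 apart, these values cannot show whether samples shared a litter or a processing run. With the replicate block there were 11 lower and 6 higher calls, and without group D replicate 3 there were 809 and 1780. Of the list medians, 775 moved by less than the spread between replicates under an alternative and 41 by more.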
